A study of Mus musculus with 4 samples.

Results

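Nuclear-encoded oxidative phosphorylation genes were followed in RNA-seq of mouse brain at embryonic day 13. The genes were chosen by name, as protein-coding rows of both deposited tables whose symbol matched the subunit families Nduf, Sdh, Uqcr, Cyc1, Cox4 to Cox8 and Atp5, and no expression value was used. The rule found 81 genes, each listed in both tables, among 19500 genes common to the tables and 22414 listed in either. They comprised 35 genes of complex I, 4 of complex II, 9 of complex III, 16 of complex IV and 17 of complex V. The study compared control brains that carry floxed alleles of Wt1, a gene for a zinc finger transcription factor (genotype WT; Wt1fl/fl, Wt1_flfl here), with brains of a conditional knockout of that gene (genotype Wt1CKO, Wt1_CKO here). The strain background was C57BL/6, and the question was what the factor does in dividing and differentiating neural progenitors. There were 2 samples of either genotype, with the numbers 1 and 2, and each deposited table held the Wt1_CKO and Wt1_flfl samples of 1 number (pair 1 and pair 2). The labels name neither the Cre driver nor the part of the brain taken, and are silent on pooling and on whether the animals were separate. The p-values therefore cover the spread among these 4 samples alone, which may be technical. What the replicate number marks is not stated either. The targeted gene was not analysed here, so it gives no check of the genotypes.

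Oxidative phosphorylation couples the oxidation of NADH and succinate to the synthesis of ATP at the inner mitochondrial membrane. Complexes I and II pass electrons to ubiquinone, complex III passes them to cytochrome c and complex IV to oxygen, while complexes I, III and IV pump the protons that drive complex V, the ATP synthase. Most subunits are encoded in the nucleus, translated in the cytosol and imported, and complexes I, III, IV and V also contain subunits encoded by mitochondrial DNA. Neural progenitors lean more on glycolysis than the neurons they produce, which depend on the respiratory chain. Some genes that match by name are not subunits. Cox7a2l encodes a factor that joins respiratory complexes into supercomplexes, Atp5sl encodes an assembly factor of complex I, and Atp5s encodes factor B, which is coupled to the ATP synthase. They were still counted by name, Cox7a2l in complex IV and Atp5s and Atp5sl in complex V. Ndufa4, named for complex I, encodes a subunit of complex IV and was counted there with Ndufa4l2.

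The 4 libraries held 16219310 to 17704698 listed counts. The defining markers of neural progenitors and young neurons were abundant in every sample, with summed levels of 2643 to 3099 CPM over 8 progenitor genes and 5443 to 6487 CPM over 8 neuron genes (CPM, counts per 1000000 counts). The samples numbered 2 differed from those numbered 1 in markers of other cells. The 10 erythroid genes summed to 963 and 919.87 CPM in the replicate 1 samples (Wt1_flfl first) and to 1855 and 1814 CPM in the replicate 2 samples. Of the 10, 5 passed the test by replicate number described below, each higher in replicate 2, where 0.885% of all tested genes were called higher. Of the neuron markers Neurod1 and Neurod6 were lower in replicate 2 and of the progenitor markers Nes and Hes5 were higher. The progenitor markers did not move as 1 set, as 5 of the 8 were higher in replicate 2 in both genotypes and 3 were lower in both. Of the 8 neuron markers 6 were lower in both genotypes and 0 were higher in both. The summed level was 113 to 130 CPM for endothelial genes, 27.0 to 28.1 for microglia, 33.5 to 60.5 for mesenchyme and 23.9 to 62.3 for choroid plexus, each over 7 genes. In whole tissue, fewer cells of a type and less RNA per cell cannot be told apart. Annotated ribosomal RNA took 0.63% of the counts in Wt1_flfl replicate 1 and 0.068% to 0.127% in the other samples.

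The 81 genes were abundantly expressed. Together they took 0.835% of the counts in Wt1_flfl replicate 1 (95% Wilson interval 0.8302 to 0.8391), 0.77% in Wt1_CKO replicate 1 (0.7657 to 0.7738), 0.806% in Wt1_flfl replicate 2 (0.802 to 0.8104) and 0.852% in Wt1_CKO replicate 2 (0.8474 to 0.8561). The lowest and the highest share were both in Wt1_CKO samples, so the genotypes overlapped. The intervals cover counting error only, because the labels name no molecular identifiers. Of the 81 genes, 80 passed the filter on low counts, and Cox7a1, the heart and muscle form of a complex IV subunit, did not, with 8, 8, 6 and 2 counts in Wt1_flfl 1, Wt1_CKO 1, Wt1_flfl 2 and Wt1_CKO 2. Per kilobase of annotated exon, the level of 70 genes exceeded the upper quartile of all tested genes, 19.7 CPM per kilobase, and 54 exceeded the ninth decile, 46.6 CPM per kilobase.

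Complex V had the highest median level and complex I the lowest. The median level was 47.6 CPM per kilobase for complex I, 67.5 for complex II, 88.1 for complex III, 104 for complex IV and 134 for complex V, with n = 35, 4, 9, 15 and 17 genes, so these medians describe the genes and are not tested. In complex V, the catalytic F1 subunits led. Atp5b, the beta subunit that carries the catalytic site, had 1124, 1069, 1090 and 1118 CPM in Wt1_flfl 1, Wt1_CKO 1, Wt1_flfl 2 and Wt1_CKO 2, and Atp5a1, the alpha subunit, had 783.1, 757.4, 728.3 and 763.4 CPM in the same order, which is used throughout. The values of both genes overlapped between genotypes and between replicate numbers. Per kilobase, Atp5b stood at 574 CPM and Atp5a1 at 261.

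Abundant genes of the other complexes overlapped between genotypes, except Cox8a. For complex I, Ndufv2, which carries an iron-sulphur cluster, had 131.7, 124.9, 119.5 and 119.7 CPM. For complex II, Sdha, the flavin-bearing subunit that oxidises succinate, had 174.6, 183.7, 194.4 and 183.4 CPM, and Sdhb, its iron-sulphur subunit, had 132.5, 126.9, 120.7 and 129.4 CPM. For complex III, Uqcrc1, a core protein, had 198.3, 177.3, 188.1 and 196.9 CPM, and Cyc1, cytochrome c1, had 174.4, 145.1, 159.1 and 160.8 CPM. For complex IV, Cox6a1 had 145.5, 110.3, 156.8 and 155.1 CPM and Cox8a had 144.9, 116.5, 151.3 and 141.7 CPM. Both of these small complex IV subunits were lowest in Wt1_CKO replicate 1, and for Cox8a both Wt1_CKO samples lay below both Wt1_flfl samples.

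**Figure D1:**
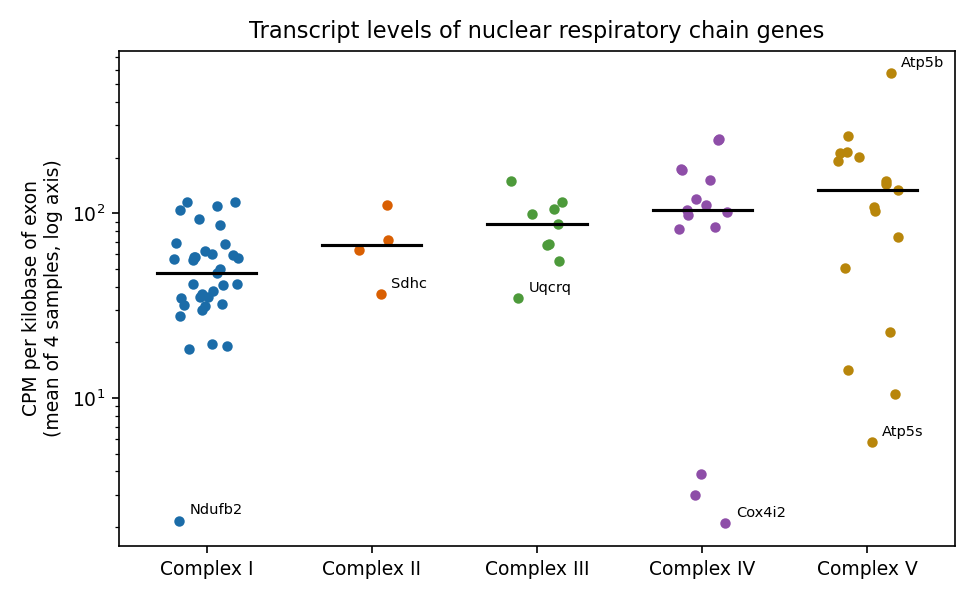
Mean level over 4 samples of each of the 80 tested genes, in CPM per kilobase of annotated exon on a log axis, by complex. Points are genes, the black line is the median of the complex, and the lowest gene of each complex and the highest of all are named. The medians run from 47.6 in complex I to 134 in complex V, and Atp5b stands highest at 574.

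Lengths are the union of exons over all basic transcripts, so a long minor transcript lowers a gene's value. Long unions were those of Ndufb2, the lowest complex I gene at 2.17 CPM per kilobase, with 4375 bases, and Atp5g1, with 4912 bases. The genes at the foot of complex IV were the restricted forms of its subunits. Cox4i2, the lung form of subunit 4, had 1.43, 1.63, 1.75 and 1.80 CPM, while its general form Cox4i1 had 128.2, 100.1, 114.96 and 119.4 CPM. Per kilobase the general form was 63.2 to 92.2 times as high in the 4 samples. Ndufa4l2, a hypoxia-inducible relative of Ndufa4, had 2.93, 2.53, 2.75 and 2.96 CPM, and Ndufa4 was 55.5 to 61.0 times as high per kilobase. Cox6b2, the testis form of subunit 6b, had 1.74, 1.91, 4.21 and 3.60 CPM, and Cox6b1 was 69.7, 56.4, 32.3 and 39.9 times as high per kilobase. Both replicate 2 samples stood above both replicate 1 samples for Cox6b2, with 28, 34, 72 and 62 counts, and its log2 difference of 1.05 between replicate numbers (SE 0.126) had an edgeR adjusted p of 0.089. Cox6a2, Cox7b2, Cox8b and Cox8c, further restricted forms, were not analysed here. The 9 striated muscle markers, 4 of which were in both tables, summed to 1.47 to 4.99 CPM.

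A set of 3 genes encodes the same mature subunit c, which forms the rotating ring of the ATP synthase. Atp5g2 had 141.1, 144.4, 130.9 and 143.1 CPM, Atp5g3 had 168.2, 138.96, 133.4 and 182.3 CPM, and Atp5g1 had 67.2, 53.96, 72.6 and 84.7 CPM. For Atp5g2 both Wt1_CKO samples lay above both Wt1_flfl samples, whereas Atp5g3 and Atp5g1 were lower in Wt1_CKO than in Wt1_flfl in pair 1 and higher in pair 2. None of the 3 passed the test of genotype.

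No gene of the group passed the test of genotype. Of the 80 tested genes 0 passed edgeR's quasi-likelihood test of Wt1_CKO against Wt1_flfl at an adjusted p of 0.05, where 0.00628% of all 15933 tested genes passed (1 gene), and 0 had an unadjusted p under 0.05, where 1.56% of all tested genes did (0.596% higher and 0.967% lower). DESeq2 and limma-voom also called 0, with 0 at an unadjusted p under 0.05. These tests held no term for the replicate number, so differences between the numbers added to their spread. The absence of calls therefore does not show that the genotypes were equal. The median log2 difference, Wt1_CKO minus Wt1_flfl, was -0.05 over the 80 genes and 0.01 over all tested genes. The single differences ran from -0.31 for Ndufa3 to 0.16 for Ndufc2. The median was 0.06 without Wt1_CKO replicate 1 and -0.185 without Wt1_CKO replicate 2, so its direction turned without the former. Each of these fits left 1 sample in an arm, so only the median is given here.

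By complex, the medians of the genotype difference were -0.08 for complex I, 0.00 for complex II, -0.08 for complex III, -0.05 for complex IV and -0.02 for complex V. The gene with the smallest p was Cox8a, with a log2 difference of -0.20 (SE 0.144) and an unadjusted edgeR p of 0.173. Its position as deposited, 7215158 to 7217616 on chromosome 19, did not match GENCODE M21 on GRCm38. The genes named next had the smallest p of their complex among negative or among positive differences. In complex I these were Ndufa11, a membrane-arm subunit, at -0.17 (SE 0.084), and Ndufa9, which sits at the joint of the arms, at 0.10 (SE 0.198). In complex III they were Cyc1 at -0.12 (SE 0.0991) and Uqcrc2, a core protein, at 0.13 (SE 0.0958). In complex V they were Atp5h, a subunit of the peripheral stalk, at -0.15 (SE 0.0466), and Atp5e, the epsilon subunit of the central stalk, at 0.15 (SE 0.293). In complex IV, Cox7a2l had the smallest p among positive differences, with a difference of 0.06 (SE 0.137). In complex II the differences were 0.02 for Sdhb (SE 0.0685) and -0.01 for Sdha (SE 0.0773). The edgeR adjusted p was 1 for each of these genes. Several of these SEs, taken from 2 samples a group, were larger than the difference itself.

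The 2 pairs lay on opposite sides of 0. In pair 1, 71 of 80 genes were lower in Wt1_CKO (88.8%, against 48.5% of all tested genes), with a median log2 difference of -0.18 and a range from -0.52 for Ndufa13 to 0.24 for Ndufc2. In pair 2, 58 of 80 were higher in Wt1_CKO (72.5%, against 49.7% of all tested genes), with a median of 0.07 and a range from -0.69 for Ndufa3 to 0.57 for Atp5e. A total of 53 genes (66.2%) were lower in pair 1 and higher in pair 2, where 22.7% of all tested genes were. The opposite pattern was found in 4 genes, while 5 were above 0 in each pair and 18 were below 0 in each pair. Each value within a pair compares 1 library with 1 library and has no replicate check, and the difference between the pairs could not be tested because no samples remain to estimate the spread.

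**Figure D2:**
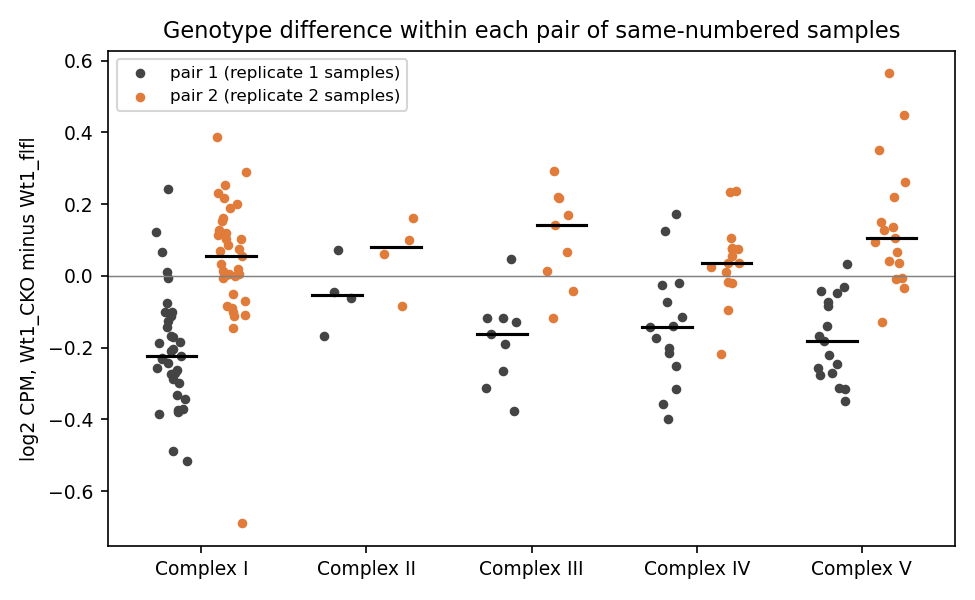
Log2 CPM of Wt1_CKO minus Wt1_flfl for each of the 80 tested genes, by complex, in pair 1 (grey) and pair 2 (orange), with black lines at the medians. The medians lie below 0 in pair 1 and above 0 in pair 2 in all 5 complexes, from -0.22 and 0.06 in complex I to -0.05 and 0.08 in complex II.

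In pair 1 the complex medians were -0.22, -0.05, -0.16, -0.14 and -0.18 for complexes I to V, and in pair 2 they were 0.06, 0.08, 0.14, 0.04 and 0.11. A total of 8 genes differed by more than 0.2 in opposite directions, namely Ndufa1, Ndufa2, Ndufc1, Uqcr10, Cox7a2, Atp5e, Atp5g1 and Atp5g3, which were picked out after their values were seen. Atp5e had 69.4 CPM in Wt1_flfl 1 and 58.1 in Wt1_CKO 1, against 50.2 in Wt1_flfl 2 and 74.3 in Wt1_CKO 2. Uqcr10, a small subunit of complex III, had 36.9 and 28.4 CPM in pair 1 and 40.6 and 47.2 CPM in pair 2. In both genes the genotypes overlapped. The summed level of the 7 choroid plexus markers moved between the pairs in the other direction. It was 23.9 and 62.3 CPM in pair 1 and 49.9 and 27.4 CPM in pair 2. Of the 4 tested markers, 2 were higher in Wt1_CKO in pair 1 and lower in pair 2, and 2 were lower in both pairs. The part of these markers in the result was not tested.

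The authors' deposited table for pair 1 marks 0 of the 81 genes as significant, where it marks 3.2% of all its genes, and that for pair 2 marks 0, where it marks 3.19%. At the authors' adjusted p under 0.05 with no limit on the fold, the authors' deposited table for pair 1 holds 47 of the genes (58.0%, against 23.3% of all its genes), 44 lower and 3 higher in Wt1_CKO. That for pair 2 holds 28 (34.6%, against 19.2% of all its genes), 26 higher and 2 lower, by the authors' deposited table. Each of these tables compares 1 library with 1 library.

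Replicate number, in contrast, separated several genes of complexes I, III, IV and V. In edgeR's test of the samples numbered 2 against those numbered 1, 7 of 80 genes passed an adjusted p of 0.05 (8.75%, against 1.96% of all tested genes). Of these 6 were higher in replicate 2, where 0.885% of all tested genes were called higher, and 1 was lower, where 1.08% were called lower. An unadjusted p under 0.05 was found for 27 genes (33.8%, against 17.9%), 23 higher (9.16% of all tested genes) and 4 lower (8.75%). The median log2 difference, replicate 2 minus replicate 1, was 0.08 over the 80 genes and 0.00 over all tested genes. It was -0.06 within Wt1_flfl and 0.25 within Wt1_CKO, and -0.015 when Wt1_CKO replicate 1 was left out.

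Ndufs5, an accessory subunit of complex I, had the largest increase. It had 384, 390, 813 and 837 counts, or 23.9, 21.9, 47.5 and 48.6 CPM in Wt1_flfl 1, Wt1_CKO 1, Wt1_flfl 2 and Wt1_CKO 2. Both replicate 2 samples were above both replicate 1 samples, with a log2 difference of 1.07 (SE 0.0645) and an edgeR adjusted p of 0.0038. Ndufc2, a membrane-arm accessory subunit of complex I, moved the other way, with 84.6, 100.2, 47.4 and 49.7 CPM. Both replicate 2 samples were below both replicate 1 samples, with a log2 difference of -0.92 (SE 0.126) and an adjusted p of 0.00685. Ndufs6, which carries a zinc site in the peripheral arm, had 21.05, 20.97, 33.3 and 30.9 CPM, with a log2 difference of 0.61 (SE 0.0542) and an adjusted p of 0.0407. These genes lie at 123712710 to 123718202 on chromosome 4, 97400003 to 97407802 on chromosome 7 and 73319838 to 73328542 on chromosome 13 (GRCm38). Ndufs6 shares 30 bases of exon with Mrpl36 on the opposite strand.

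The other 4 genes that passed were small subunits of complexes III, IV and V, and in each the replicate numbers did not overlap. Uqcr11, the smallest subunit of complex III, had 23.7, 21.9, 37.9 and 36.8 CPM, with a log2 difference of 0.71 (SE 0.0623) and an edgeR adjusted p of 0.0222. Cox5b, a zinc-binding subunit on the matrix side of complex IV, had 84.3, 70.9, 112.8 and 115.7 CPM, with a difference of 0.56 (SE 0.126) and an adjusted p of 0.0315. Cox7c, a membrane subunit of complex IV, had 108.04, 106.1, 142.1 and 144.4 CPM, with a difference of 0.42 (SE 0.0178) and an adjusted p of 0.0429. Atp5k, the e subunit that helps to pair ATP synthase units, had 15.3, 13.5, 22.4 and 24.2 CPM, with a difference of 0.69 (SE 0.105) and an adjusted p of 0.0467. Reads of such short, abundant genes can be shared with processed copies. The copies that carry these family names held few counts, at most 14 for Atp5l-ps1, and 2 and 3 for Atp5k-ps2 in Wt1_flfl 2 and Wt1_CKO 2. Copies under other names were not traced, so the values of Ndufs5, Cox7c and Atp5k are uncertain to that extent.

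**Figure D3:**
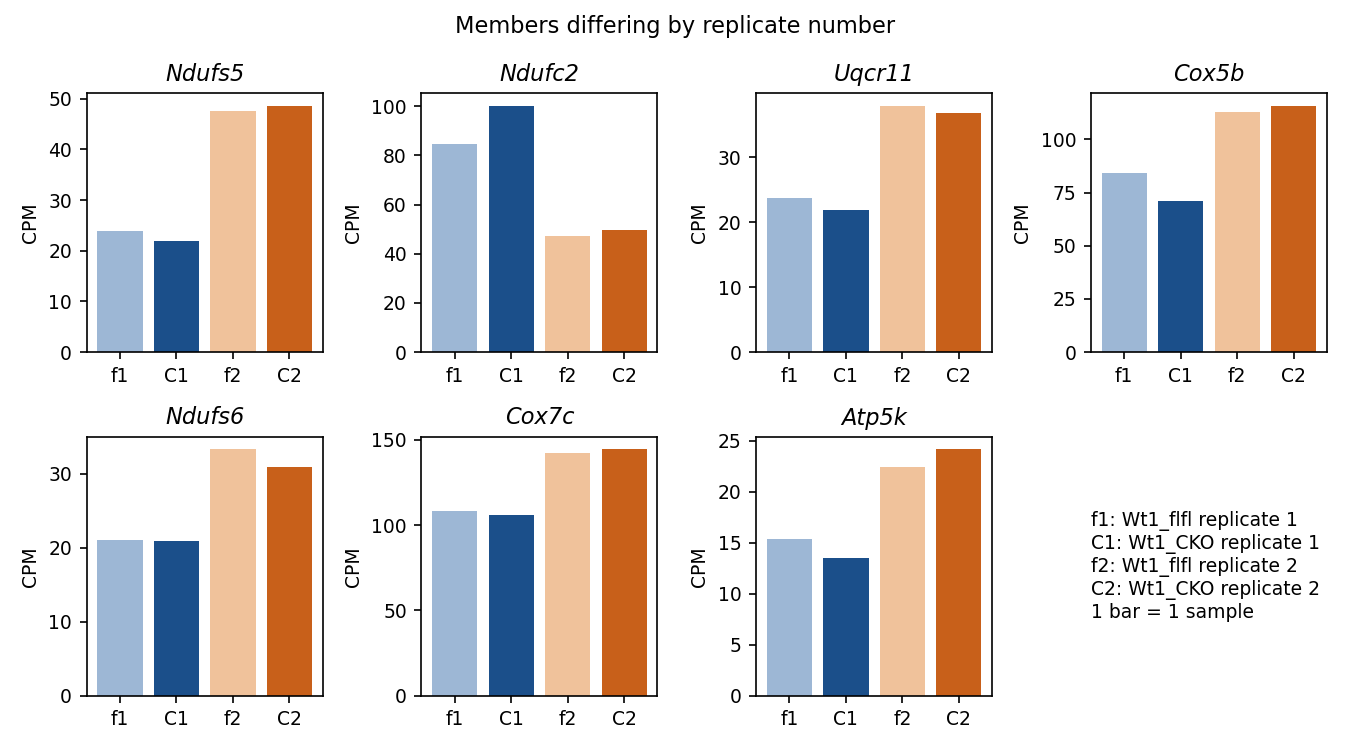
CPM in each of the 4 samples for the 7 genes with an edgeR adjusted p under 0.05 by replicate number, ordered by p. Each bar is 1 sample and each axis starts at 0. In 6 genes both replicate 2 bars (orange) stand above both replicate 1 bars (blue), and in Ndufc2 they stand below.

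The calls depended on single libraries, apart from Ndufs5 and Ndufc2, which passed in each of 11 alternatives, with adjusted p from 3.98e-09 to 0.0227 and from 5.25e-09 to 0.0276. The number of calls over all tested genes also changed when single samples were left out, so this dependence is not particular to the group. Without Wt1_CKO replicate 1 the edgeR adjusted p was 0.149 for Cox5b, 0.11 for Uqcr11, 0.154 for Ndufs6, 0.173 for Cox7c and 0.215 for Atp5k. Without Wt1_flfl replicate 1 it was 0.059 for Uqcr11, 0.114 for Ndufs6, 0.108 for Cox7c and 0.0967 for Atp5k, and without Wt1_flfl replicate 2 it was 0.0888 for Ndufs6 and 0.0567 for Cox7c. The log2 differences themselves stayed between 0.41 and 0.78 in these fits.

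Several genes just missed the threshold. Ndufa13, which also acts as a partner of STAT3, had 41.7, 29.1, 56.2 and 56.4 CPM and an edgeR adjusted p of 0.0617. Ndufv3 had 34.2, 31.6, 44.4 and 49.3 CPM and an adjusted p of 0.0547. Ndufa3, a small membrane-arm subunit, had 14.7, 15.4, 34.1 and 21.1 CPM and an adjusted p of 0.0713, with Wt1_flfl 2 above the rest. Ndufa13 shares 375 bases of exon with Tssk6 on the opposite strand. These 3 genes were chosen after their values were seen.

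Of the remaining named genes none passed by replicate number. Sdha had a log2 difference of 0.08 (SE 0.0555) and Sdhd, a membrane anchor of complex II, one of -0.19 (SE 0.0376). Uqcrfs1, the Rieske iron-sulphur protein of complex III, had one of -0.13 (SE 0.16), Cox7b one of -0.04 (SE 0.0715) and Atp5o, a subunit of the peripheral stalk, one of -0.25 (SE 0.123). By complex, the median replicate difference was 0.18 for complex I, -0.05 for complex II, 0.04 for complex III, 0.17 for complex IV and -0.05 for complex V. Within complex I the 7 core subunits, those conserved from bacteria, had a median of -0.09 and the 28 accessory subunits one of 0.27. The median exon length was 1623 bases for the core genes and 868 bases for the accessory genes.

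**Figure D4:**
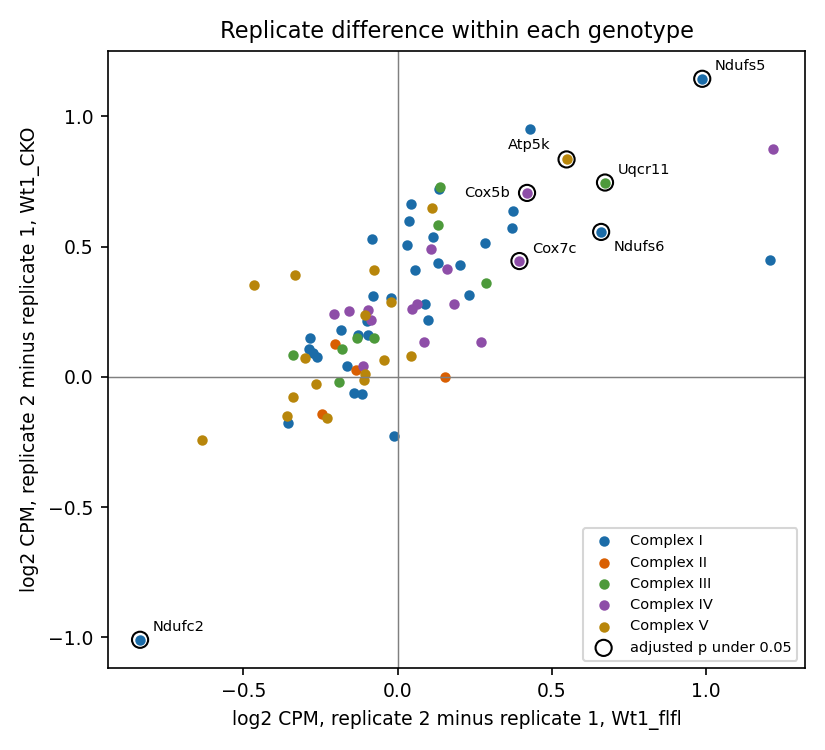
Log2 CPM of replicate 2 minus replicate 1 for each of the 80 tested genes, within Wt1_flfl (horizontal axis) and within Wt1_CKO (vertical axis), coloured by complex. Circled genes had an edgeR adjusted p under 0.05. Within Wt1_CKO, 66 of 80 genes lie above 0, and within Wt1_flfl 36 do.

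Within Wt1_CKO, 66 of 80 genes were higher in replicate 2 (82.5%, against 49.9% of all tested genes), and within Wt1_flfl 36 were (45.0%, against 49.9%). A total of 35 genes were higher in replicate 2 in both genotypes (43.8%, against 32.3% of all tested genes) and 13 were lower in both (16.2%, against 32.4%). In complex IV, 15 of 15 tested genes were higher in replicate 2 within Wt1_CKO. In complex V, 3 of 17 were higher within Wt1_flfl. The erythroid and neuronal markers given above moved with the same replicate number, and their part in these differences was not tested.

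Promoters of the genes called by replicate number are shown because respiratory genes are, as a class, known targets of NRF1, of the ETS factor GABP and of YY1. The 300-base RefSeq windows (GRCm38.p6, from 250 bases before to 50 after the start) of the 3 called higher with an NRF1 match and of Ndufc2, called lower, follow, 5′ to 3′ on the gene's strand. Capitals mark the letters of NRF1 (GCGCA and GCGC with any base between), the ETS core (CGGAAG) and YY1 (AAGATGGC) on either strand.
Ndufs5 (chr4:123718137-123718436, minus strand): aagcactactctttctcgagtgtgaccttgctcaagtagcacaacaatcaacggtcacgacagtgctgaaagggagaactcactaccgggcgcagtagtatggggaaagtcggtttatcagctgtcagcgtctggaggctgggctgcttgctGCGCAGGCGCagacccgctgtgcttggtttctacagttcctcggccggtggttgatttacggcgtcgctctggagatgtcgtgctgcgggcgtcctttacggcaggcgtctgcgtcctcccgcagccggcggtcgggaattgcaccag
Ndufs6 (chr13:73328433-73328732, minus strand): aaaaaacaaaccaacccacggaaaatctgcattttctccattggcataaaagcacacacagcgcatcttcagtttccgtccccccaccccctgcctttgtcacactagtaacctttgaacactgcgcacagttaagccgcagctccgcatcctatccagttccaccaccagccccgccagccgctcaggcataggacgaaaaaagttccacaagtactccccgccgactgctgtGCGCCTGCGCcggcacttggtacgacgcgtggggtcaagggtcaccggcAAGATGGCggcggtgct
Atp5k (chr5:108434350-108434649, minus strand): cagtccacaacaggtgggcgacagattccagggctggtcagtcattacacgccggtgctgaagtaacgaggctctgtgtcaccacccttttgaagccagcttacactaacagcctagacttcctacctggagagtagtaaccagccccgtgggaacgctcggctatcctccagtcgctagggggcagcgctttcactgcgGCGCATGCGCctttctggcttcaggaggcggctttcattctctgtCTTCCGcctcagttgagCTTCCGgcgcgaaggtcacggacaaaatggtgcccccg
Ndufc2 (chr7:97399753-97400052, plus strand): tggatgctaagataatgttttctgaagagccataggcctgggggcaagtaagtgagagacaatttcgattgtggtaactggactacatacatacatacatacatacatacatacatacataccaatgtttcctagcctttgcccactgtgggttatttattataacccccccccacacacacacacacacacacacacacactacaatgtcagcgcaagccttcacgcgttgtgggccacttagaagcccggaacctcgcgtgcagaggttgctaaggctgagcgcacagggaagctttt

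In these windows the NRF1 letters began 98 bases before the start in Ndufs5, 50 before it in Atp5k and 16 before it in Ndufs6. The Ndufs6 window also held the YY1 letters, beginning 33 bases after the start base, and the Atp5k window held the ETS core at 2 places. The Ndufc2 window held none of the 3, as did that of Cox7c, while those of Uqcr11 and Cox5b held the ETS core. The 3 higher genes shown were picked for their NRF1 letters, so these windows cannot show whether the letters go with the direction of change. Of the 81 genes, 67 matched a promoter entry. The NRF1 letters were in 17 of these 67 (25.4%) and in 5.2% of the 27025 genes with a window. The ETS core was in 27 (40.3%, against 18.8%) and the YY1 letters in 11 (16.4%, against 3.2%). AAGGTCA, bound by oestrogen-related receptors, was in 8 (11.9%, against 5.4%), and TATAAA was in 5 (7.5%, against 15.7%). In the windows shown AAGGTCA is not in capitals. It began 228 bases before the start on the opposite strand in Ndufs5, and 23 bases after the start base in Atp5k. End letters of these patterns can overlap. Genes with several starts counted once if any window matched, and a match of letters is a description, not a bound site.

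The regulators themselves were measured in the same samples. Of 12 transcriptional regulators, 0 passed by genotype or by replicate number in edgeR's test. At an unadjusted p under 0.05 there was 1 by genotype, where 1.56% of all tested genes stood. By replicate number there were 2, where 17.9% of all tested genes stood. By genotype the smallest unadjusted edgeR p values were those of Gabpb2 (log2 difference 0.33, p 0.0316) and Gabpa (0.25, p 0.103). Gabpa and Gabpb2 encode subunits of GABP. By replicate number they were those of Esrra (log2 difference 0.45, p 0.00254) and Hcfc1 (0.23, p 0.0299). Esrra, an oestrogen-related receptor, had 27.96, 27.7, 37.1 and 38.9 CPM and an edgeR adjusted p of 0.0755, with both replicate 2 samples above both replicate 1 samples. Nrf1, given here because of the NRF1 letters above, had 70.2, 74.2, 82.2 and 81.2 CPM. Gabpa shares 397 bases of exon with Atp5j, a subunit of the peripheral stalk of complex V, on the opposite strand, and the labels do not say whether strand was kept.

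The differences were also compared with transcript length. The median exon length was 983 bases over the 81 genes and 3176 bases over all tested genes with a length. Within Wt1_CKO, the 20 genes of up to 700 bases had a median replicate difference of 0.36, the 17 over 1000 and up to 1500 bases one of 0.22 and the 7 over 2000 and up to 3000 bases one of 0.00. The 3 genes over 3000 bases went the other way, with a median of 0.51. They were Ndufb2 at 0.51, Atp5g1 at 0.65 and Sdhc at 0.13. Ndufb2 and Atp5g1 are the genes with the long unions of exons given above, so their class of length is uncertain. Other genes of at least 16 CPM had medians of 0.20, 0.03 and 0.00 in the same classes, with n = 128, 626 and 1660. Within Wt1_flfl the medians of the 2 shortest classes of the group were 0.07 and 0.04, while those of other genes were -0.08 and -0.11. Spearman's rho of length with the replicate difference across the 80 genes was -0.34, which is a description across genes that share the same 4 libraries.

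The split between the pairs was also present in other short genes. In pair 1 the medians of the genotype difference were -0.20 for the group and -0.17 for other genes of up to 700 bases, and -0.22 and -0.16 over 700 and up to 1000 bases. In pair 2 they were 0.09 and 0.12, and then 0.04 and 0.07. Over 3000 bases, other genes had medians of 0.05 and 0.00 in pairs 1 and 2 (n = 5590). The 3 genes of the group, Ndufb2, Atp5g1 and Sdhc, had medians of -0.32 and 0.16, with the same limit on length. The part of length in the results was not tested.

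**Figure D5:**
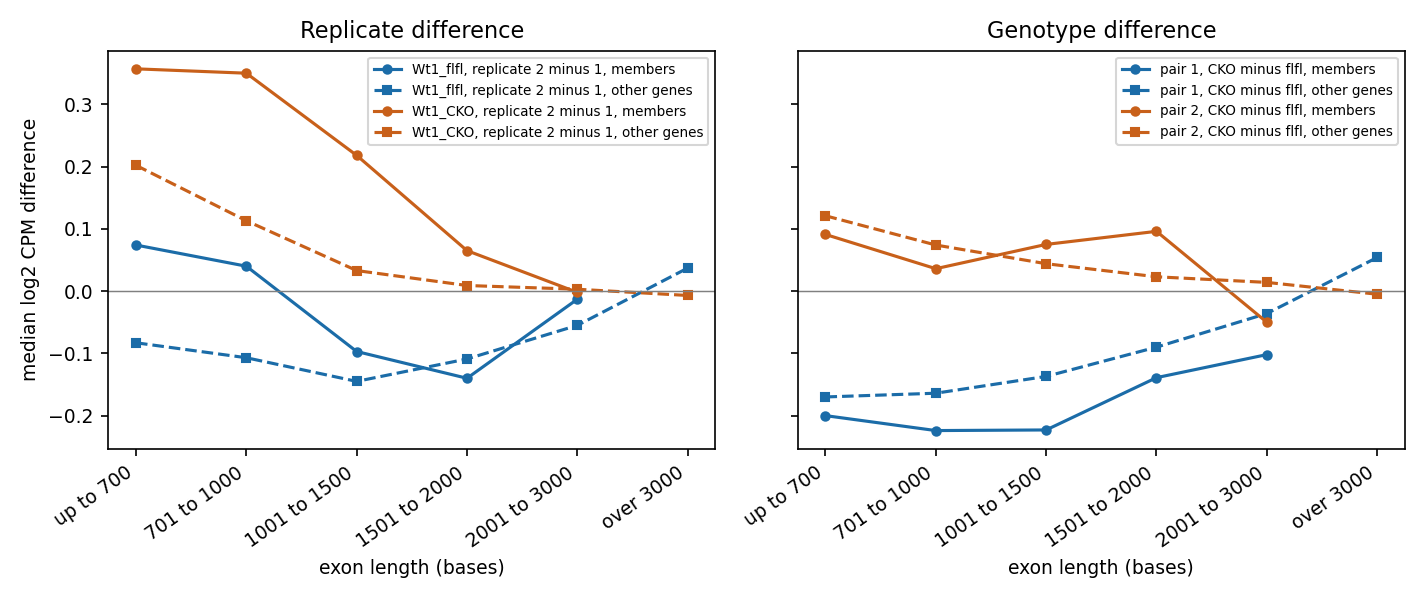
Median log2 CPM difference by class of exon length for the group (solid lines) and for other genes of at least 16 CPM (dashed lines), for the replicate difference within each genotype (left) and the genotype difference within each pair (right). Classes with fewer than 5 genes are left out. In pair 1 both lines are lowest in classes of up to 1500 bases, and within Wt1_CKO the group stands at 0.36 in the shortest class, where other genes stand at 0.20.

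Other genes of the pathway are given by their 2 smallest unadjusted edgeR p values in each comparison. Of 14 assembly factors of complex I, 0 passed in either comparison. By genotype the smallest p values were those of Nubpl (log2 difference 0.61, p 0.0567) and Acad9 (0.28, p 0.0839), and by replicate number those of Ndufaf4 (log2 difference -0.30, p 0.03) and Ndufaf7 (-0.26, p 0.0496). Of 36 tested assembly factors of the other complexes 0 passed. By genotype the smallest were Higd2a (log2 difference -0.37, p 0.0379) and Ttc19 (-0.24, p 0.132), and by replicate number Uqcc2 (log2 difference 0.58, p 0.00904) and Sdhaf4 (-0.50, p 0.0486). Of 6 genes tied to the chain but outside the name rule, 0 passed. Atpif1, which inhibits ATP hydrolysis by the synthase, had 19.3, 13.7, 32.6 and 16.4 CPM, lower in Wt1_CKO in both pairs. Its genotype difference was -0.74, with an unadjusted edgeR p of 0.0227 and an adjusted p of 1, and its replicate difference was 0.51 (p 0.0774 in edgeR's test). Next came the ADP/ATP carriers, Slc25a5 by genotype (0.16, p 0.222) and Slc25a4 by replicate number (-0.14, p 0.164).

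Of 17 genes of the citric acid cycle and pyruvate dehydrogenase 0 passed in either edgeR comparison, with medians of 0.03 by genotype and -0.07 by replicate number. The smallest p values were those of Pdha1 (log2 difference 0.23, p 0.1) and Suclg2 (0.15, p 0.297) by genotype, and of Sucla2 (log2 difference -0.32, p 0.0116) and Fh1 (-0.21, p 0.0423) by replicate number. Of 18 tested glycolysis genes 0 passed by genotype and 2 by replicate number, where 1.96% of all tested genes passed by replicate number. Gapdh was higher in replicate 2, with 171.5, 168.7, 273.5 and 292.7 CPM and an edgeR adjusted p of 0.00685. Aldoc, an aldolase of neural tissue, was lower, with 137.1, 164.9, 37.2 and 63.6 CPM and an adjusted p of 0.0099 in edgeR's test. Reads of Gapdh can be shared with processed copies. By genotype the smallest p values were those of Gpi1 (log2 difference -0.26, p 0.0457) and Aldoa (-0.21, p 0.123).

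Of the 11 tested genes of mitochondrial DNA expression 0 passed, with medians of 0.10 by genotype and -0.08 by replicate number. The smallest edgeR p values were those of Tfam (log2 difference 0.19, p 0.145) and Polg (0.20, p 0.169) by genotype, and of Tfb2m (log2 difference -0.49, p 0.00701) and Polg (0.16, p 0.216) by replicate number. Tfam packages mitochondrial DNA. Of the 11 tested subunits encoded by mitochondrial DNA 0 passed. Their median genotype difference was 0.01 in pair 1 and -0.26 in pair 2, while that of the nuclear genes was -0.18 and 0.07. The smallest edgeR p values were those of mt-Atp6 (log2 difference -0.49, p 0.0303) and mt-Nd6 (-0.26, p 0.0787) by genotype, and of mt-Nd2 (log2 difference -0.43, p 0.00391) and mt-Co3 (-0.68, p 0.0173) by replicate number. For mt-Co3, with 32.4, 66.2, 31.15 and 26.8 CPM, Wt1_CKO 1 stood above the rest. Its replicate difference was -0.06 within Wt1_flfl and -1.30 within Wt1_CKO. Both mt-Co3 and mt-Atp6, with 21.3, 17.0, 21.9 and 13.9 CPM, lay far below mt-Co1, with 9973, 10530, 9365 and 8311 CPM. Whether reads of these low genes were lost in counting was not tested, so their differences are uncertain.

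Of 77 mitochondrial ribosomal protein genes 0 passed by genotype and 1 by replicate number in edgeR's test, where 1.96% of all tested genes passed by replicate number. This was Mrpl12, with 22.4, 21.6, 34.4 and 34.2 CPM and an edgeR adjusted p of 0.0293, followed by Mrpl20 with an adjusted p of 0.0887. By genotype the smallest p values were those of Mrpl34 (log2 difference -0.25, p 0.103) and Mrps6 (-0.38, p 0.111). Of 22 import genes 0 passed by genotype and 1 by replicate number, beside the same 1.96% of all tested genes. This was Tomm7, with 22.2, 17.3, 32.6 and 35.8 CPM and an edgeR adjusted p of 0.0303, followed by Timm21 with an adjusted p of 0.154. By genotype the smallest p values were those of Tomm40l (log2 difference 0.49, p 0.0674) and Tomm40 (-0.28, p 0.0782). The 80 cytosolic ribosomal protein genes had medians of -0.17 in pair 1 and 0.22 in pair 2. Of these 80, 67 (83.8%, against 22.7% of all tested genes) were lower in pair 1 and higher in pair 2. By replicate number 2 of them passed upward and 2 downward in edgeR's test, where 0.885% and 1.08% of all tested genes did. They were led by Rps18 with an edgeR adjusted p of 4.55e-05 and Rpl30 with one of 0.000318. By genotype 0 passed, with the smallest p values for Rpl3 (log2 difference 0.46, p 0.0123) and Rps26 (-0.70, p 0.044).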

How the data were processed

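Libraries were made from oligo(dT)-selected RNA with random priming, per the labels' protocols. HTSeq 0.6.0, TopHat2 2.0.12, Bowtie2 2.2.3 and mm9 are named in the submitters' processing notes, and neither annotation nor strand setting is given in those sources. The positions in the tables matched GENCODE M21 on GRCm38 for 92.1% of the 22368 gene IDs found there, and for 67 of the 81 members. Those that matched are printed as GRCm38 positions, and that of Cox8a, which did not match, is printed as deposited. Per the file headers, the authors deposited whole-number counts per Ensembl gene. In the deposited CPM columns each count is scaled to a total at most 0.0225% above the listed counts. The deposited fold ratio and its log2 column compare 1 library with 1 library, and the authors' p-values (raw and adjusted) come from a test that is not named.

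For genes listed in both tables, counts entered edgeR 4.0.16 in R 4.3.3 (filterByExpr, minimum count 10, TMM, quasi-likelihood F test, Benjamini-Hochberg adjustment over all 15933 tested genes), with genotype or replicate number as the only term. Printed CPM of genes are TMM-scaled; shares and marker sums use the listed totals. Log2 differences are those of mean log2 CPM with a prior count of 2, with SEs from the SDs of 2 samples a group. On simulated counts with 15622 genes tested, the genotype test recovered 62.6% of the 99 genes given a log2 change of 1 and 93.6% of the 94 given 2, and called 7 unchanged genes. The simulated samples held no difference by replicate number. No log2 change under 1 was simulated, so recovery at the size of the members' genotype differences is not known. Exon lengths are from GENCODE M21, promoters from RefSeq. Alternatives were library totals without TMM, DESeq2 size factors, no filter and a minimum of 50, DESeq2 1.42.0, limma-voom (limma 3.58.1), a block and leaving out each sample. The members and lists were chosen with earlier results of these data known. Named genes were, per complex, the 2 most abundant, those with the smallest p per direction in each comparison, those past the threshold and fixed sets of isoforms, with those of smallest p from each other list; others were chosen after their values were seen. Of the genes this rule selects, 1 is not reported here.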

Additional observations from a re-analysis of the deposited data

Results flagged for a closer look

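The median log2 difference of the 80 tested genes between Wt1_CKO and Wt1_flfl was -0.184 in pair 1 and 0.068 in pair 2. It stands here because the samples of the 2 numbers moved in opposite directions. The difference between the pairs was not tested. No group held enough samples for a check of outlying samples.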

How the results depend on the processing

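By genotype, the count of members called was 0 under each of the 11 alternatives, and the members' median stayed between -0.185 and 0.059. Over all genes the genotype calls, 1 as reported, were 5 with DESeq2, 42 with a replicate block and 3 to 73 when single samples were left out. By replicate number the members called, 7 as reported, were 4 with no low-count filter, 13 with a replicate block and 2 to 9 when single samples were left out. Over all genes those calls, 313 as reported, were 197 with no filter, 578 with DESeq2, 1138 with a replicate block (here genotype as a further term) and 71 to 940 when single samples were left out. No label says that a number marks shared animals or batches. With 2 samples a genotype, the deviations of same-numbered samples from their genotype means correlated at 0.28 across 15933 genes, so the pairing is only a hint from the data. The reported genotype test has no term for the number. The differences between numbers, with 313 calls over all genes, thus add to its spread and can hide small genotype differences. The replicate block called 0 members by genotype. In its edgeR test 3 of 80 members had an unadjusted p under 0.05 (Cox6a1, Cox8a and Ndufa12), as did 1146 of all 15933 tested genes. Without the block 0 members and 249 of all tested genes had such a p in edgeR's test.

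Named members whose direction turned were uncalled throughout. Without TMM the genotype difference of Sdha was 0.011. When single samples were left out the genotype difference ran from -0.077 to 0.279 for Ndufa9, from -0.048 to 0.087 for Sdhb, from -0.081 to 0.072 for Sdha, from -0.066 to 0.188 for Cox7a2l and from -0.079 to 0.389 for Atp5e. The replicate difference then ran from -0.276 to 0.018 for Uqcrfs1 and from -0.108 to 0.034 for Cox7b. The cause was not tested. With 1 sample left in an arm, that sample is assumed to vary like the others. Depth limits Cox7a1 and, less so, Cox4i2, Cox6b2 and Ndufa4l2.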
